A study of Mus musculus with 6 samples.

Results

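Pim1, Pim2 and Pim3, the 3 genes of the Pim family of serine/threonine kinases, were followed in mouse bone marrow after an injection of recombinant human erythropoietin (rHuEPO). A gene probe was taken as a member when its accession belongs to 1 of the 3 genes in RefSeq. This gave 5 of the 41174 gene probes, 1 for Pim1, 3 for Pim2 and 1 for Pim3, and all 5 were well above background on all 6 arrays. RNA of unsorted femoral marrow cells was hybridised to 1-colour Agilent arrays, 1 per sample. Every sample came from male ISAM mice of mixed strain aged 10 weeks, with the genotype Epo-/-::3.3K-Epo3'-Tg458. These animals lack the endogenous Epo gene and are carried by an Epo transgene that works in the embryo but leaves the adult short of the hormone and anemic. The controls share this deficiency, and no wild-type marrow was among the samples. The 3 rHuEPO samples had received 3000 U/kg into the abdominal cavity 6 h earlier. The control arm joined 1 untreated sample to 2 that had been given phosphate-buffered saline (PBS) 6 h earlier. Replicate numbers are given without saying whether they stand for separate animals, so every test measures only the spread between these samples, which may be technical.

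Pim kinases carry no regulatory domain that has to be switched on, so their activity follows how much of them is made. Their genes are transcribed in blood cells when a cytokine receptor, such as the erythropoietin receptor, activates JAK2 and the transcription factors STAT5A and STAT5B. The kinases then phosphorylate proteins of cell survival, the cell cycle, transcription and translation, much as the AKT kinases do. In the blood-forming marrow they are known as survival and growth kinases whose functions overlap.

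The promoters are shown because the members share a kinase domain but need not share the DNA in front of their start sites. Each line gives the 250 bases before the start that RefSeq annotates (build GRCm38.p6, plus strand for all 3 genes), with capitals for the GC box GGGCGG, the CCAAT box CCAAT and any other searched motif, on either strand.
Pim1 promoter, chr17:29490535-29490784: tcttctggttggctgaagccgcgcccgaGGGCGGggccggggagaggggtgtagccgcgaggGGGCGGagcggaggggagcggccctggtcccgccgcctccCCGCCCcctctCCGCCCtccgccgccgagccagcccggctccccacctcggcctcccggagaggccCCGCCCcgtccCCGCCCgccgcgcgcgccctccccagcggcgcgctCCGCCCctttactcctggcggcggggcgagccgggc
Pim2 promoter, chrX:7878056-7878305: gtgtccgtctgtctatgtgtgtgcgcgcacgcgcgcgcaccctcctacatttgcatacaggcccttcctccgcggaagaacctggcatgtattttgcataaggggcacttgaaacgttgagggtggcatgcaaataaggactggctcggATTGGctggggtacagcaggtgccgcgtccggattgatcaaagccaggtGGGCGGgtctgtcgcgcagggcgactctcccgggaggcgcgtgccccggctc
Pim3 promoter, chr15:88861944-88862193: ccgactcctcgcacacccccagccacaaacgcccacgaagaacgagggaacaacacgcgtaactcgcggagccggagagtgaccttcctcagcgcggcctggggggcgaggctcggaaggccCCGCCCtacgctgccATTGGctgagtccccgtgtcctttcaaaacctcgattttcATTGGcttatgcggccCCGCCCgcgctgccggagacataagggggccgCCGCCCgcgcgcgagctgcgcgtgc

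The Pim1 promoter was 82.4% G or C over these 250 bases, and 99.4% of the 32851 promoter windows in the table had a lower share. The shares were 62.0% for Pim2 and 68.0% for Pim3, against a median of 52.4%. The motif search covered each whole window of 300 bases, which runs 50 bases past the start. The window of the first Pim1 start held 7 GC boxes, a number reached or passed by 0.627% of all windows, while 35.7% held at least 1. It held no CCAAT box, a motif found in 37.4% of windows. The window of the second Pim1 start held 0 GC boxes and 0 CCAAT boxes. Pim2 had 1 GC box and 1 CCAAT box, and Pim3 had 4 GC boxes, of which 1 lies past the start, and 2 CCAAT boxes. The STAT motif TTCNNNGAA, which reads the same on both strands and is present in 8.30% of windows, was found in none of the 4 Pim windows, which include a second annotated start of Pim1. Of the 10 other early STAT5 target genes with a window in the table, 3 held the motif, namely Bcl6, Cish and Socs3. These 10 genes have 15 windows, so a count of genes is not directly comparable with the 8.30% of windows. A match is a run of letters and not a measured binding site, and a missing one says only that these letters are not in this window. The GATA motif AGATAA, the TATA box TATAAA and the ETS motif CCGGAAG were found in none of the 4 Pim windows either, and the E-box CACGTG once, at the second Pim1 start.

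Values below are log2 of the scanner's processed signal minus the 75th percentile of the same array, so a value of 0 lies at that percentile. The 75th percentile signal lay between 220.7 and 264 over the arrays, no gene spot was saturated, and between 46.2% and 50.5% of gene spots were well above background. Slide 1 held the untreated array and rHuEPO replicate 1, slide 2 the other 4, and slide and scan fell together. Limma (adjusted over 14853 genes, threshold 0.05) called 10 genes higher after rHuEPO, 0.0673% of those tested, and 0 lower. At an unadjusted p under 0.05 there were 363 genes higher (2.44%) and 373 lower (2.51%), 4.96% together. PBS replicate 1 stood apart from the other controls for all 5 Pim probes, and the Pim differences are given with and without it.

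Pim1 read higher in the rHuEPO marrow than in the control marrow on every array. Pim1 encodes the founding member of the family, a kinase with a short-lived protein. Its value was 1.32 on the untreated array and 0.40 and 1.28 on PBS arrays 1 and 2. It was 3.02, 1.97 and 2.23 on rHuEPO arrays 1, 2 and 3. The arms did not overlap, and PBS replicate 1 was the lowest and rHuEPO replicate 1 the highest of the 6. In processed signal units this is a range of 291 to 640.1 in the controls and of 1011 to 2146 after rHuEPO. The mean was 1.00 ± 0.52 (SD, n = 3) in the controls and 2.41 ± 0.55 (SD, n = 3) after rHuEPO.

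The Pim1 difference, rHuEPO minus control, was 1.41 ± 0.36 (SE, 3 against 3 arrays), or 2.66-fold, with a 95% interval of 0.57 to 2.25 on the log2 scale. It did not pass the test over all genes (limma adjusted p = 0.626), although it was the 46th highest difference and the 122nd smallest p of 14853 genes. None of the 3 Pim genes passed. Arms that did not overlap were found for 10.4% of all genes, 5.01% with every rHuEPO array higher and 5.39% with every one lower. Within slide 1 the Pim1 difference was 1.71 and within slide 2 it was 1.26. Without PBS replicate 1 it was 1.11 (limma adjusted p = 0.724), and without rHuEPO replicate 1 it was 1.10 (limma adjusted p = 0.611). Over all alternatives with a test the adjusted p by limma ranged from 0.176 to 1.00.

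Pim2 did not differ between the arms beyond the spread of the arrays. Pim2 encodes a Pim kinase best known from lymphoid cells. Its brightest probe, the third, read 0.95 on the untreated array, 0.13 and 1.05 on PBS arrays 1 and 2, and 0.94, 0.77 and 0.58 on rHuEPO arrays 1, 2 and 3. The 3 rHuEPO values lay inside the control range, and PBS replicate 1 was again the lowest. The difference was 0.05 ± 0.28 (SE, 3 against 3 arrays; limma adjusted p = 1.00), with a 95% interval of -0.60 to 0.70. Changes from 0.661-fold to 1.62-fold are therefore inside the interval. Without PBS replicate 1 the sign turned, to -0.24 (limma adjusted p = 0.871).

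The other Pim2 probes followed the third one across the arrays, at their own brightness. The first probe read 0.47, -0.39 and 0.59 on the untreated array and PBS arrays 1 and 2, and 0.48, 0.23 and 0.31 on the rHuEPO arrays. The second, dimmer probe read -1.20, -2.30 and -1.27 in the same controls and -1.28, -1.50 and -1.54 after rHuEPO. With each probe set to its own control mean, the 3 probes lay within 0.22 of each other on every array and within 0.04 on PBS replicate 2. Their differences were 0.12 ± 0.28, 0.15 ± 0.31 and 0.05 ± 0.28 (SE, 3 against 3 arrays), none of which passed over the 19590 probes tested (limma adjusted p = 1.00 for each), where 0.0562% of probes did. The probes share the same transcript accession, so they are repeated readings of 1 RNA and not replicates.

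Pim3, which encodes a kinase close to Pim1 in sequence, also stayed within the spread of the arrays. It read 0.87 on the untreated array, -0.03 and 0.59 on PBS arrays 1 and 2, and 0.88, 0.38 and 0.63 on rHuEPO arrays 1, 2 and 3. The arms overlapped, with PBS replicate 1 lowest and the 2 slide 1 arrays highest. The difference was 0.15 ± 0.27 (SE, 3 against 3 arrays; limma adjusted p = 1.00), with a 95% interval of -0.48 to 0.79, or 0.715-fold to 1.73-fold. It was 0.01 within slide 1 and 0.23 within slide 2, and without PBS replicate 1 it was -0.10 (limma adjusted p = 0.937).

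**Figure D1:**
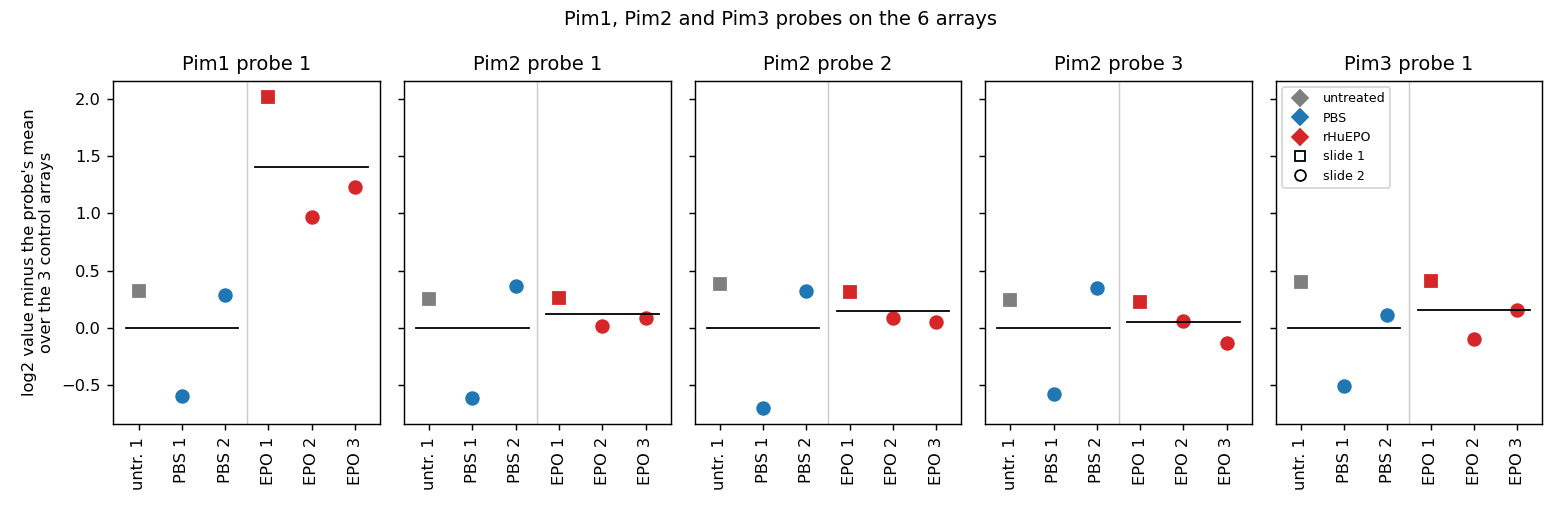
Each panel is 1 Pim probe, with the 6 arrays on the x axis (untr., untreated; EPO, rHuEPO) and on the y axis the log2 value minus the probe's mean over the 3 control arrays; colours give the group, shapes the slide, and black lines the mean of each arm. The Pim1 values after rHuEPO lie 0.97 to 2.02 above the control mean, the other 4 probes stay within the control range, save for the slide 1 rHuEPO array of Pim3 at 0.41 against a control maximum of 0.40, and PBS replicate 1 is lowest in all 5 panels.

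Because the 3 genes moved together over the control arrays, their differences were also compared within each array. The untreated array and PBS arrays 1 and 2 spanned 0.92 for Pim1, yet the difference between Pim1 and Pim2, set to a control mean of 0, was 0.08, -0.02 and -0.06 on them. On rHuEPO arrays 1, 2 and 3 it was 1.80, 0.91 and 1.37. The Pim1 difference thus exceeded that of Pim2 by 1.36, where the standard deviation of that difference was 0.071 over the 3 controls and 0.44 over the 3 rHuEPO arrays. The exact two-sided permutation test over the 20 splits gave p = 0.10, the smallest that 3 against 3 arrays allow, and 0.15 adjusted over the 3 pairs. The excess was 1.72 in slide 1 and 1.18 in slide 2.

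Against Pim3 the excess of Pim1 was 1.26 (exact permutation p = 0.10, adjusted 0.15), with control values of -0.08, -0.09 and 0.17 and rHuEPO values of 1.62, 1.07 and 1.08. The arms did not overlap for either pair. The excess over the other Pim2 probes was 1.29 and 1.26. Without PBS replicate 1 the values were 1.35 against Pim2 and 1.21 against Pim3, so they moved less with that array than the Pim1 difference itself did. Pim2 and Pim3 differed from each other by -0.11 (exact permutation p = 0.50), with overlapping arms. With 3 against 3 arrays none of these tests could pass 0.05, so the larger Pim1 values are a description of these arrays.

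**Figure D2:**
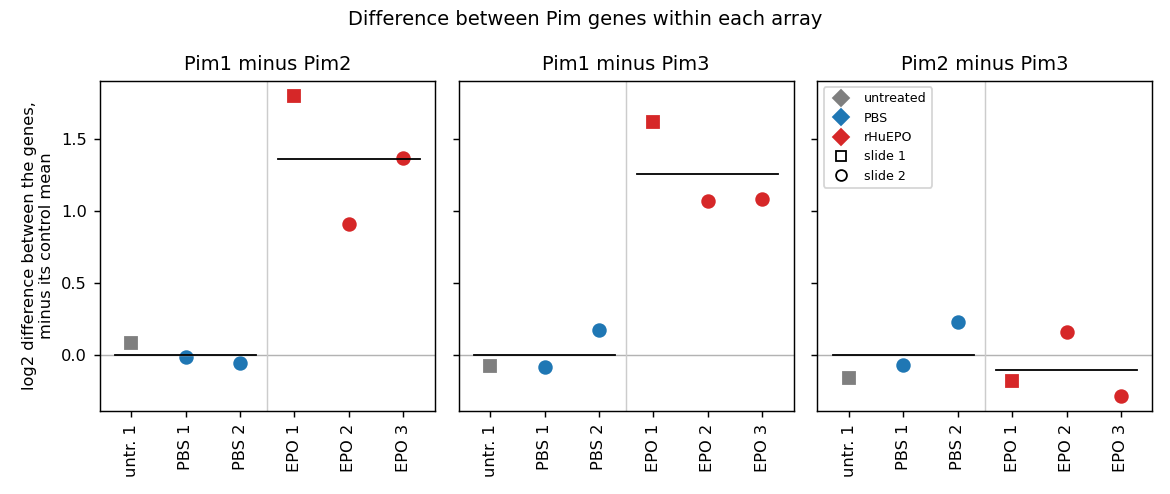
For each pair of Pim genes the y axis gives the log2 difference between the genes within an array, minus its mean over the controls, for the 6 arrays on the x axis (untr., untreated; EPO, rHuEPO); colours give the group, shapes the slide and black lines the mean of each arm. Both pairs with Pim1 lie within 0.17 of 0 on the controls and between 0.91 and 1.80 after rHuEPO, while the arms of Pim2 minus Pim3 overlap.

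The control arm mixes injected and uninjected marrow, so both parts were compared in a fit with 3 groups. Against PBS alone the rHuEPO difference was 1.57 ± 0.40 for Pim1, 0.17 ± 0.31 for Pim2 and 0.35 ± 0.27 for Pim3 (SE, 3 against 2 arrays; limma adjusted p = 0.999 for each), where 3 genes passed, 0.0202% of those tested. The untreated array exceeded the PBS mean by 0.47 for Pim1, 0.36 for Pim2 and 0.60 for Pim3, with limma adjusted p of 0.754, 0.761 and 0.676. These values come from 1 untreated array, and no gene passed in that comparison (0% of those tested; limma). The untreated array was above PBS replicate 1 for each gene, above PBS replicate 2 for Pim1 and Pim3, and below it for Pim2.

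Genes that act with the Pim kinases were read from lists by role, and 2 of the 65 tested members passed, both among the early STAT5 targets. Of all 14853 genes 10 passed, or 0.0673%. The lists were chosen with earlier results of these data known, so neither these 2 calls nor the counts and medians of the lists are further support. The early STAT5 target list had 15 tested members besides Pim, of which 12 lay above 0, where 47.3% of all genes did. Its median difference was 0.26, against -0.015 over all 14853 genes. Erfe encodes the hormone erythroferrone, which lowers hepcidin, and its control readings were not well above background. With these raised to the lowest well-above-background reading of any probe on their array, Erfe was 24.1-fold higher after rHuEPO. That value depends on the floor chosen and is not a strict lower bound. For the readings themselves the limma adjusted p was 3.17e-05. Erfe entered the test only through its 3 rHuEPO arrays, and that p rests on control readings near background. With the filter on all 6 arrays Erfe was not tested. With normexp background correction its difference was 2.08 and it was not called (limma adjusted p = 0.711). Cish, a feedback inhibitor of STAT5 signalling, read -0.31, 0.66 and 0.61 on the untreated array and PBS arrays 1 and 2, and 4.23, 4.47 and 4.75 after rHuEPO. Its difference was 4.16 ± 0.30 (SE, 3 against 3 arrays; limma adjusted p = 0.0127), with the arms far apart.

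Cish lost its call when PBS replicate 1 was left out (limma adjusted p = 0.0959), and likewise rHuEPO replicate 2 (limma adjusted p = 0.0742) or rHuEPO replicate 3 (limma adjusted p = 0.0974), and Erfe was then the only list member called. Tfrc, the transferrin receptor, did not pass but did not overlap, with 2.74, 2.54 and 3.06 in the controls and 3.65, 3.76 and 3.82 after rHuEPO. Its difference was 0.97 ± 0.19 (limma adjusted p = 0.427). PBS replicate 1 was the lowest Tfrc array, as it was for the Pim genes. The remaining 12 members, among them Socs3, Socs2, Socs1, Myc, Osm, Bcl2l1 and the cyclins Ccnd2 and Ccnd3, overlapped between the arms, with differences from -0.23 for Mcl1 to 0.96 for Socs3.

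The inducers of Pim transcription showed no member past the test. Of 14 tested receptors, JAK and transcription factors 6 lay above 0, the median was -0.029, and the range ran from -0.35 for Il7r to 0.31 for Epor. Epor, the erythropoietin receptor gene, had a mean of 4.39 in the controls and read 4.54, 4.65 and 4.92 after rHuEPO, with the arms overlapping. Its difference of 0.31 was 0.12 without PBS replicate 1. Stat5a, Stat5b and Jak2, which carry the signal to the Pim genes, had differences of -0.01 ± 0.21, 0.07 ± 0.28 and -0.21 ± 0.28. Csf2rb, the shared beta chain of other cytokine receptors, had 0.26 ± 0.29, and Hoxa9, a homeobox factor, -0.29 ± 0.35 (SE, 3 against 3 arrays; limma adjusted p = 1.00 for all 5).

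Genes whose protein products the Pim kinases phosphorylate were also without a call, 0 of 24 tested, with 11 above 0 and a median of -0.039. Of the 7 tested cell cycle substrates 2 lay above 0, with a median of -0.14, where 47.3% of all genes lay above 0. Cdkn1b, the cyclin-dependent kinase inhibitor p27, read 1.75, 1.89 and 1.95 in the controls and 1.52, 1.46 and 1.44 after rHuEPO. Every rHuEPO array was below every control, as for the 5.39% of all genes above, and the difference was -0.39 ± 0.16 (limma adjusted p = 0.973). With normexp background correction it was 0.06, on the other side of 0. Its second probe had -0.53. Numa1, a spindle protein, had -0.14 ± 0.16 (0.28 with normexp) and Cdc25c, a phosphatase that opens mitosis, -0.23 ± 0.28.

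The survival substrates Map3k5, Foxo1 and Bad had differences of -0.18 ± 0.32, -0.06 ± 0.36 and -0.02 ± 0.31. In transcription and chromatin, where 4 of 7 lay above 0, Myc had 0.55 ± 0.41, Myb -0.21 ± 0.19 and Nfatc1 -0.36 ± 0.38. Myc read 2.25, 1.52 and 2.90 in the controls and 2.17, 2.90 and 3.26 after rHuEPO, so that the arms overlapped. With 1 array left out the Myc difference ran from 0.20, without PBS replicate 1, to 0.89, that of Nfatc1 from -0.75 to -0.16 and that of Socs3 from 0.53 to 1.34. The 4 translation and mTOR substrates ran from -0.08 for Tsc2 to 0.13 for Eif4b, with Akt1s1 at 0.12. Among the signalling substrates, Socs3, a suppressor of cytokine signalling, read 2.12, 3.11 and 3.74 in the controls and 3.54, 4.22 and 4.10 after rHuEPO, and Cxcr4, the chemokine receptor that holds cells in the marrow, had -0.54 ± 0.27. Socs1 had 0.04 ± 0.26 (SE, 3 against 3 arrays; limma adjusted p = 1.00 for each gene of this paragraph).

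The genes for Pim protein stability and the parallel kinases were also without a call. All 5 members of the stability list lay above 0, as did 47.3% of all genes. They ran from 0.07 for Cdc37 to 0.14 for the phosphatase subunit gene Ppp2ca. Ppp2r1a was at 0.13 ± 0.18 and Hsp90ab1, the chaperone that shields Pim1 protein, at 0.10 ± 0.19. Ppp2ca did not overlap between the arms, at 2.77 to 2.90 in the controls and 2.91 to 3.06 after rHuEPO. Of the 65 tested members of all these lists, 4 did not overlap with rHuEPO higher and 2, Sgk3 among them, with rHuEPO lower. Over all genes these shares were 5.01% and 5.39%. Of the 10 tested AKT, SGK and S6 kinases 3 lay above 0 and the median was -0.023. Sgk3 read 0.27, 0.48 and 0.11 in the controls and -0.13, 0.08 and -0.09 after rHuEPO, a difference of -0.33 ± 0.18. Rps6ka3 had 0.13 ± 0.21 (SE, 3 against 3 arrays; limma adjusted p = 1.00 for each gene named here).

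**Figure D3:**
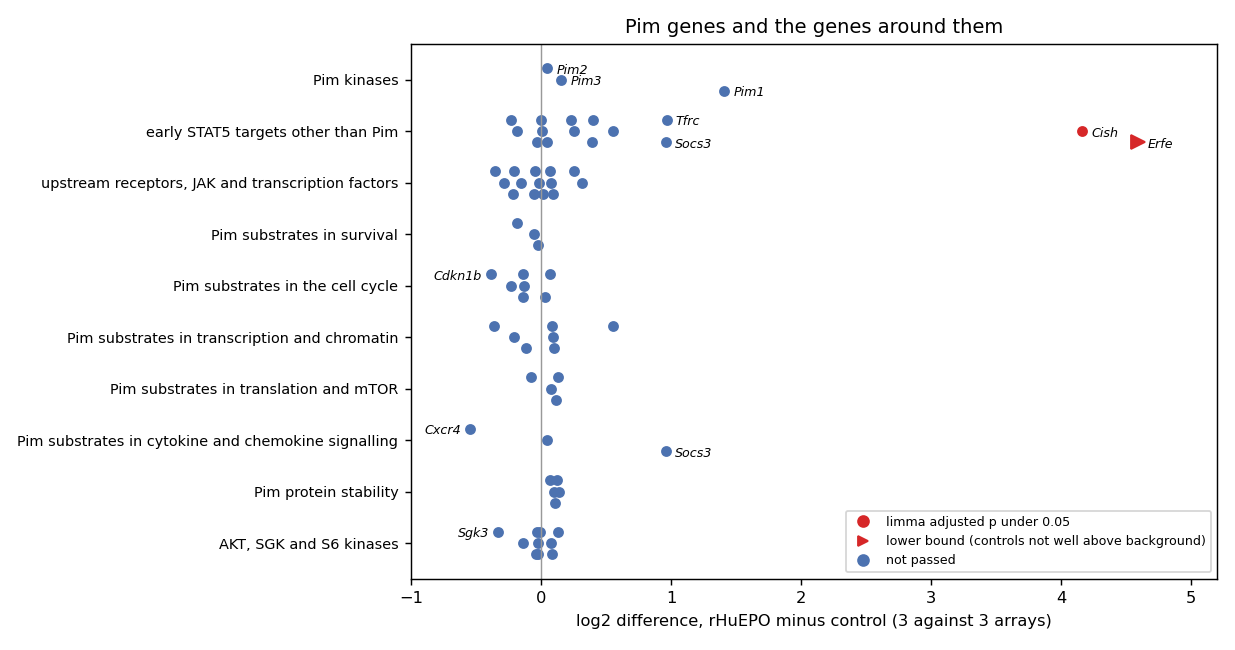
Points are tested genes, by list on the y axis, at their log2 difference of rHuEPO minus control over 3 against 3 arrays on the x axis. Red marks limma adjusted p under 0.05. The triangle, labelled a lower bound, is Erfe with its control readings raised to the lowest well-above-background reading of their array. Pim1 at 1.41 lies right of both other Pim genes and left of Cish at 4.16 and Erfe, and the lists other than the early STAT5 targets hold no red point.

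The genes with an array profile closest to that of Pim1 were looked up among 10176 named genes well above background on all 6 arrays. Likeness was the mean absolute difference of log2 values, each gene centred on its own mean over the 6 arrays. The closest were Sptb (0.196), the beta spectrin of the red cell skeleton, Oas1e (0.218), of the oligoadenylate synthetase family, Bex4 (0.248), Add2 (0.271), a beta adducin of the same skeleton, and Abcg2 (0.275), a membrane exporter. Pim2 and Pim3 spanned only 0.92 each over the 6 arrays, under the span of 1 that the rule asks for, and no such genes are named for them. In the centred profile Pim1 ran from -1.30 on PBS replicate 1 to 1.32 on rHuEPO replicate 1, a wider range than that of any of the 5 genes. Sptb ran from -0.83 to 0.94 on the same arrays, with a difference of 1.24 ± 0.21 (limma adjusted p = 0.260).

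The arms did not overlap for Oas1e, Bex4, Add2 and Abcg2 either, with differences of 1.20, 1.14, 0.94 and 1.09. Some of these values moved with the processing: Oas1e was at 0.30 with normexp, Sptb at 0.56 with the mean of its probes, and Bex4 at 0.82 without PBS replicate 1. None of the 5 passed, the adjusted p by limma being 0.427 for Oas1e, 0.720 for Bex4 and 0.537 for both Add2 and Abcg2. The measure was chosen to find genes that move as Pim1 does, so their separation is no further finding.

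**Figure D4:**
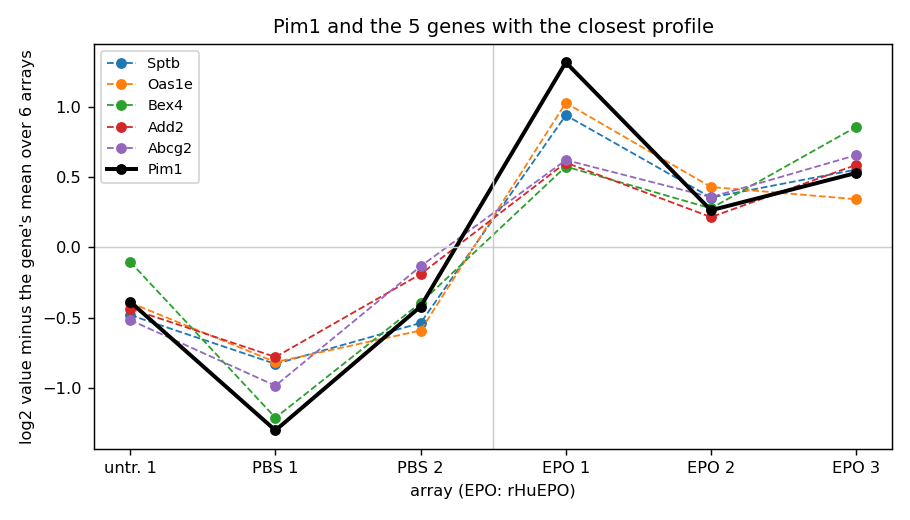
The y axis gives the log2 value of a gene minus its mean over the 6 arrays, which are on the x axis (untr., untreated; EPO, rHuEPO); the thick black line is Pim1 and the dashed lines the 5 closest genes, with lines only joining the values of 1 gene. All 6 genes lie below 0 on the 3 controls, above 0 on the 3 rHuEPO arrays, and lowest on PBS replicate 1.

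Marrow is a mixture, and in unsorted cells fewer cells of a type and less RNA per cell cannot be told apart. Markers of the expected lineages were measured, 10 of 10 for erythroid cells, 9 of 10 for neutrophils, 7 of 8 for the B lineage and 6 of 6 for megakaryocytes. The B lineage score, the mean log2 value of the tested markers minus their control mean, was 0.63 on the untreated array, -1.52 on PBS replicate 1 and 0.89 on PBS replicate 2, and -0.42 to 0.12 after rHuEPO. On PBS replicate 1, the array with the lowest Pim values, the erythroid score was -0.43, the stroma and endothelium score -1.15 and the neutrophil score 0.38. The summed level of the B lineage markers, relative to the 75th percentile, ran from 33.7 to 151 in the controls and from 65.7 to 83.1 after rHuEPO. Of the 7 tested B lineage markers 6 were well above background on PBS replicate 1 and on rHuEPO replicates 2 and 3, and all 7 on the other arrays. The T and NK cell score was -0.07 to 0.09 in the controls and 0.13 to 0.25 after rHuEPO, without overlap. The summed level of these markers did overlap, at 29.08 to 42.58 in the controls and 29.85 to 37.26 after rHuEPO. Of the 7 tested T and NK cell markers 5 had a difference above 0 and 2 below. The part of these shifts in the Pim values was not tested.

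The erythroid score also differed between the arms, -0.43 to 0.23 in the controls and 0.14 to 0.48 after rHuEPO, a difference of 0.33, and the arms overlapped. The summed erythroid level ran from 1987 to 2259 in the controls and from 1939 to 2284 after rHuEPO. The Pim1 difference exceeded that of the erythroid score by 1.08, with control values of -0.17 to 0.11 and rHuEPO values of 0.83 to 1.55. Against 7 of the 8 marker lists the Pim1 arms did not overlap, with an excess between 1.08 and 1.59. Megakaryocyte markers were the exception, since their score ran from -1.27 on rHuEPO replicate 1 to 0.75 on rHuEPO replicate 2. Pim2 and Pim3 overlapped between the arms against all 8 lists, at -0.28 and -0.17 against the erythroid score. The Pim1 arms did not overlap before this subtraction either. The part of the cell mixture in the Pim values was not tested.

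**Figure D5:**
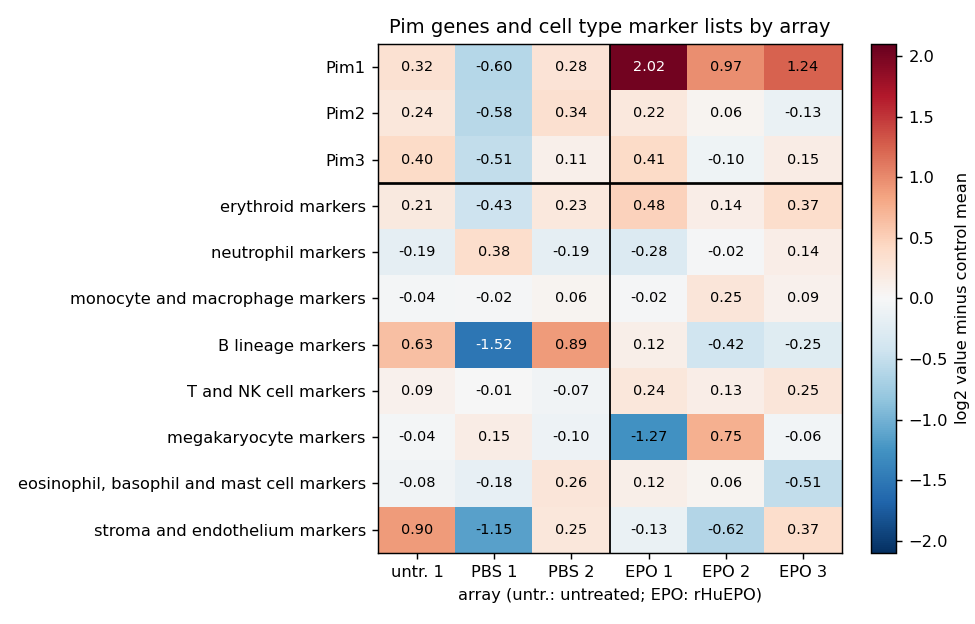
Cells give the log2 value minus the mean of the 3 controls for the 3 Pim genes and, below the line, the mean over the tested markers of each cell type, with arrays on the x axis (untr., untreated; EPO, rHuEPO). PBS replicate 1 is low for all 3 Pim genes, for B lineage markers (-1.52) and for stroma and endothelium markers (-1.15), and Pim1 is high on the 3 rHuEPO arrays.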

How the data were processed

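The deposited scanner files hold the intensity of each spot, as read, per the file headers, by Agilent Feature Extraction 10.7.3.1. A second deposited table gives log2 values, with no statement of their scaling in its header. Set against the processed signals after scaling by the 75th percentile and subtraction of the probe's median, they gave slopes of 0.9996 to 1.0004, and their column medians ran from -0.103 to 0.117.

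Control spots (1639) and outlier spots were left out, and spots of 1 probe averaged. A probe was tested when well above background on at least 3 of 6 arrays, which kept 19590 of 41174. The brightest tested probe stood for a gene. Accessions were named through RefSeq (GRCm38.p6), which matched 26690 probes. The array design uses another build, so gene coordinates are given only for RefSeq promoters, which held windows for all 3 Pim genes.

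Limma 3.58.1 in R 4.3.3 (lmFit, eBayes, two-sided, Benjamini-Hochberg) tested rHuEPO against control, and the fit was tested on simulated data. Standard errors and 95% intervals come from its moderated spread, and the number of arrays limits their precision. Differences between Pim genes had an exact permutation test. Correlations between arrays were 0.964 to 0.991. They cannot tell repeats of 1 animal from separate animals, and no array was treated as a repeat. The genes named are the Pim genes, list members that passed, the 3 with the smallest p per list, and the 5 closest profiles, with others of the lists named after their values were seen. 1 gene that the rule names is not reported here. Members and lists were chosen with earlier results of these data known. Alternatives were other scaling (quantile, median), normexp with an offset of 50 on median signals (mean signals are not used here), other filters, the deposited table, PBS arrays alone as control, a robust prior with intensity trend, probes averaged per gene, a slide block, a replicate block, array weights, and each array left out in turn.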

Additional observations from a re-analysis of the deposited data

How the results depend on the processing

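The Pim1 difference stayed above 0 under all 20 alternatives and short of the threshold in the 18 with a test. It ran from 0.968 with array weights to 1.71 within slide 1, and from 1.10 to 1.63 with 1 array left out. These alternatives are not all separate checks. PBS as the only control and the untreated array left out are the same fit. The filters, the robust prior, averaged probes and the slide block could change only the p of Pim1, whose difference stayed at 1.41. The excess of Pim1 over the other Pim genes stayed above 0 under all 16 alternatives run. It ran from 1.14 to 1.59 (1.585) against Pim2 and from 1.07 to 1.36 against Pim3. With 1 array left out it ran from 1.14 to 1.59 and from 1.07 to 1.35. A shift of a whole array cancels in this excess, so median scaling could not move it. The deposited values, both filters and the slide block also left it as in the main fit. The small differences turned sign under some alternatives. Pim2 was at -0.134 with array weights, -0.0135 within slide 1 and -0.241 to 0.221 with 1 array left out, being below 0 without PBS replicate 1 and without rHuEPO replicate 1. Pim3 was at -0.0587 with array weights and -0.100 to 0.354 with 1 array left out. Pim2 minus Pim3 was 0.0269 with normexp and -0.235 to 0.00992 with 1 array left out.

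The number of genes called was 1 with normexp, 1 without a filter, 5 with the filter on all 6 arrays, 3 with PBS as the only control, 27 with array weights and 1 to 6 with 1 array left out. Leaving out PBS replicate 1, rHuEPO replicate 2 or rHuEPO replicate 3 left 1 gene, leaving out the untreated array or rHuEPO replicate 1 left 3, and leaving out PBS replicate 2 left 6. List members called numbered 1 with normexp, 1 without a filter, 1 with the filter on all 6 arrays and 1 to 2 with 1 array left out. The cause was not tested. The correlation of PBS 1 minus 2 with rHuEPO 1 minus 2 was -0.114. It cannot decide whether shared replicate numbers pair the arrays, since rHuEPO replicates 1 and 2 lay on different slides. With the replicate block 1 gene and 1 list member were called and Pim1 was at 1.53 (limma adjusted p = 1.00). A slide block gave 11 genes called, against 10 in the main fit, and a limma adjusted p of 0.238 for Pim1. Every Pim probe was well above background on every array, so no Pim value rests on a raised control reading.

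Of the other genes named, none of which but Cish and Erfe was called, several with small differences turned sign. With normexp Foxo1 was at 0.431, Cdkn1b at 0.0634, Numa1 at 0.283, Myb at 0.264 and Tsc2 at 0.401, and Erfe was at 2.08 and not called. Bad was at 0.0382 with quantile and 0.0508 with median scaling, where Foxo1 was at 0.0184. With PBS as the only control Socs1 was at -0.123, Map3k5 at 0.0398, Csf2rb at -0.0127 and Hoxa9 at 0.0445. With the replicate block Socs1 was at -0.194 and Map3k5 at 0.0838. With array weights Hsp90ab1 was at -0.0509, Socs1 at -0.0720 and Bad at 0.204. With 1 array left out Rps6ka3 ran from -0.0470 to 0.227, Hsp90ab1 from -0.00822 to 0.244, Socs1 from -0.123 to 0.249, Map3k5 from -0.476 to 0.0398, Foxo1 from -0.378 to 0.352, Bad from -0.266 to 0.260, Tsc2 from -0.166 to 0.0383, Csf2rb from -0.0127 to 0.471 and Hoxa9 from -0.636 to 0.0445. Cish was not called without a filter (limma adjusted p = 0.116) or with the replicate block (limma adjusted p = 0.293).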
